A study of Mus musculus with 18 samples.

Results

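The T cell receptor genes of mouse regulatory T (Treg) cells were compared across 6 organs. The genes were the variable (V) segments of the α, β, δ and γ chains (symbols starting with Trav, Trbv, Trdv and Trgv) and 7 constant region genes (Trac, Trbc1, Trbc2, Trdc, Trgc1, Trgc2 and Trgc4). Of the 55487 genes in the deposited tables, 183 carried such a symbol, and 152 of them, selected on their level, averaged 1 TPM or more in 1 or more of the organs. TPM is a transcript level per unit of length, scaled to the same total in every library. The 152 genes comprised 110 Trav, 26 Trbv, 5 Trdv and 4 Trgv segments and the 7 constant genes, and 9 of the segments are annotated as pseudogenes. Of these, 107 passed in all 6 organs and 12 in 1 organ only. Of the 31 genes left out, 22 were listed at 0 in every library. Just below the threshold lay Trav4d-2, with 0.93 TPM in lymph node, and Trav11n, with 0.853 TPM in spleen. Just above it lay Trbv12-3, with 1.06 TPM in bone marrow, and Trdv2-1, with 1.26 TPM in spleen.

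Poly(A) RNA had been sequenced from CD4+Foxp3+ T cells of wild-type mice that received no treatment. The cells were sorted fresh from spleen, lymph node, bone marrow, liver, lung and peripheral blood, and each organ gave 3 libraries, 18 in all. The labels give no age, strain, sorting gate or number of animals, nor do they say that the 3 libraries of an organ came from separate animals, so p-values measure the spread between these libraries, which may be technical. The study's title sets blood Treg cells against those of the tissues.

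An αβ T cell receptor is made of an α and a β chain, each joined in the developing cell from a V segment, a joining segment and, in the β chain, a diversity segment, and spliced to a constant region. The V segment encodes most of the loops that contact the peptide and the presenting molecule, so the mix of V segments in a population reflects which receptors its cells carry. A γδ receptor is built in the same way from γ and δ segments by another T cell lineage, and the δ genes lie inside the α locus.

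The markers of the sorted cell were present in all libraries, with mean Foxp3 between 88.6 TPM in blood and 239 TPM in lymph node. Markers of other blood cells were present as well. Their summed level was 144 ± 12.1 TPM (SD, n = 3) in blood for a natural killer and NKT list of 5 genes, against organ means of 3.03 to 13.7 TPM elsewhere, and 24723 and 36685 TPM in blood and bone marrow for a myeloid list of 6 genes, against 47.7 to 1520 TPM elsewhere. A platelet list of 5 genes summed to 2532 TPM in blood and 3.26 to 75.7 TPM elsewhere. A B cell list of 4 genes summed to 496 TPM in blood, 445 in spleen and 413 in bone marrow, against 60.2 to 122 elsewhere. An erythroid list of 4 genes ranged from 73.5 TPM in lymph node to 11427 TPM in liver. Read depth differed too. The TPM value that 1 read stands for in a transcript of 1 kb, taken from the steps between low values of 12062 genes, was lowest in blood (0.0843) and lymph node (0.0898) and highest in lung (0.237) and liver (0.383), which places blood 2.81 times as deep as lung and 4.54 times as deep as liver. For the 74 members that averaged 10 TPM or more, the SD between replicates had a median of 12.7% of the mean in lymph node, 52.2% in lung and 54.1% in liver.

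Transcripts of the α constant region were lowest in blood. Trac, the single constant gene of the α chain, was measured at 1093, 1128 and 1006 TPM in spleen, 1247, 1259 and 1238 in lymph node, 1085, 1048 and 1046 in bone marrow, 1455, 1159 and 1154 in liver, 772, 910 and 787 in lung, and 379, 396 and 392 in blood. The 3 blood libraries lay below all others, with no overlap. On the log2(TPM + 1) scale, blood was lower by limma by 1.46 against spleen, 1.68 against lymph node, 1.44 against bone marrow, 1.68 against liver and 1.08 against lung, each with an SE of 0.08 and an adjusted p of at most 1.4e-08. Bulk RNA cannot tell fewer T cells from less receptor RNA per cell, and the 5 contrasts share the blood libraries. A list of 10 general T cell genes (among them Cd3e, Cd3g, Lck and Zap70) also summed lower in blood, at 2070 ± 35.0 TPM (SD, n = 3), than in the other organs, at 2600 to 5116 TPM. Not every gene of the list was lower in blood than in lung. Lck averaged 403 TPM in blood and 300 in lung, Lat 317 and 223, and Themis 21.3 and 15.9. Divided by that list, Trac was still lowest in blood, at 0.188 ± 0.00129, against 0.237 in spleen, 0.244 in lymph node, 0.317 in lung, 0.329 in liver and 0.348 in bone marrow. When every library was scaled to the list, Trac in blood remained lower than in each organ by limma, by 0.33 (spleen) to 0.89 (bone marrow) on the log2 scale, with adjusted p of at most 0.00092.

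Under that scaling the β constant genes passed the test as lower in blood against lung only. Trbc1 and Trbc2, the near-identical alternative constant genes of the β chain whose separate values are uncertain, summed to 1773, 1771 and 1766 TPM in blood, below all libraries of bone marrow (2252 to 2350), lung (2340 to 2726), liver (2641 to 2837), lymph node (3651 to 3695) and spleen (3943 to 4086). On TPM, Trbc1 and Trbc2 in blood were lower in all 5 contrasts by limma (Trbc1 by 0.26 against bone marrow to 1.15 against spleen, adjusted p at most 0.0073; 0.051 for Trbc1 against bone marrow without trend and robust estimation). Scaled to the T cell list, Trbc1 and Trbc2 were higher in blood by limma against lymph node (0.36 and 0.19, adjusted p = 5.4e-04 and 0.0018) and bone marrow (0.30 and 0.12, adjusted p = 0.0044 and 0.048). Against liver Trbc2 was higher (0.36, adjusted p = 4.8e-06), while Trbc1 did not pass the test (0.11, adjusted p = 0.19 by limma). Against lung both remained lower (-0.20 and -0.18, adjusted p = 0.035 and 0.0034 by limma), and against spleen neither passed (-0.02 and -0.05, adjusted p = 0.85 and 0.36 by limma). Within the list, Lck, Lat and Themis were higher in blood than in lung, and their part in the lung result was not tested. That scaling moved the median of all genes by 0.28 (lung) to 1.04 (lymph node) on the log2 scale. The sum of the 2 Trbc genes per unit of Trac was highest in blood, at 4.68, 4.47 and 4.50, and low in bone marrow, at 2.07, 2.24 and 2.18, and in liver, at 1.85, 2.28 and 2.46, which overlapped. Spleen lay at 3.51 to 3.92. Blood did not overlap any other organ in this ratio. Trbc1 made up between 35.0% (bone marrow) and 38.1% (lung) of the Trbc sum in 5 organs and 42.0% ± 3.50 (SD, n = 3) in liver, where the libraries spread from 39.3% to 45.9%.

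**Figure D1:**
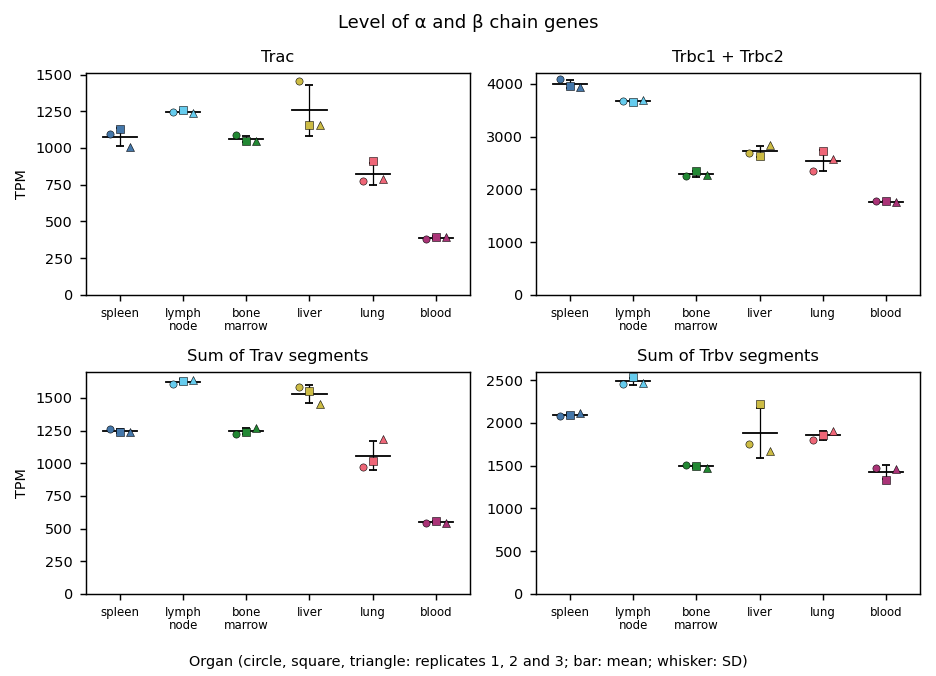
Level (TPM, linear axis from 0) of Trac, of the Trbc1 and Trbc2 sum, and of the summed Trav and Trbv segments in each library of the 6 organs, with organ mean and SD. Blood is lowest in all 4 panels, at 389 TPM for Trac; scaled to general T cell genes, both Trbc genes pass the test as lower in blood against lung only, and both as higher against lymph node and bone marrow.

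The summed V segments of both chains were also lowest in blood. Trav segments summed to 541, 555 and 546 TPM in blood and to between 972 TPM (a lung library) and 1640 TPM (a lymph node library) in the other organs. Trbv segments summed to 1331 to 1473 TPM in blood, 1476 to 1507 in bone marrow and 1675 to 2533 elsewhere. The ratio of the Trbv sum to the Trav sum was 2.72, 2.40 and 2.69 in blood, above every library of lung (1.60 to 1.85), spleen (1.64 to 1.71), lymph node (1.51 to 1.56), liver (1.10 to 1.43) and bone marrow (1.16 to 1.23). Both the constant genes and the V segments thus showed a higher β to α ratio in blood than in any other organ. In all, the 152 genes held 0.419% ± 0.00740 of the TPM in blood and 0.907% ± 0.00467 in lymph node.

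The level of single receptor genes was tested next. By the limma F test over the 6 organs, 63 of the 152 members (41.4%) had an adjusted p under 0.05, against 68% of the 16694 genes tested. This held 38 of 110 Trav, 16 of 26 Trbv, 3 of 9 Trdv and Trgv segments, and 6 of 7 constant genes. In blood, 26 members were lower than in spleen (background 15.3%), 39 than in lymph node (21%), 19 than in bone marrow (18.8%), 31 than in liver (16.1%) and 17 than in lung (17.3%), while 6, 3, 7, 11 and 10 were higher (backgrounds 20.1%, 16.4%, 13%, 23.3% and 26.4%). The members lower than in spleen were 17.1% of the 152, those lower than in lymph node 25.7% and those lower than in liver 20.4%, so these shares were near the background. Those lower than in bone marrow were 12.5% and those lower than in lung 11.2%, both below the background. The higher members were 1.97 to 7.24% of the 152 over the 5 contrasts. After scaling to the T cell list, the lower members numbered 3, 2, 8, 10 and 11 in the same order (backgrounds under that scaling 1.84%, 1.43%, 7.32%, 4.86% and 10.7%) and the higher ones 21, 14, 17, 28 and 16 (backgrounds 61.6%, 62.1%, 33.5%, 59.6% and 39.3%). Of the genes around the receptor, all 12 of a CD3 and coreceptor list, which carry the receptor signal into the cell, passed the F test. In the same order of organs, 10, 10, 9, 11 and 7 of the 12 were lower in blood by limma, and 1, 1, 1, 1 and 4 were higher. The γ chain of the CD3 complex, Cd3g, averaged 313 TPM in blood and 765 TPM in lymph node, and the coreceptor Cd4 155 and 403 TPM. Ptprc went the other way, at 1227 TPM in blood and 728 to 955 TPM in the other organs.

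Use was therefore described as each segment's share of the summed V segments of its chain, a share that transcripts of any other αβ T cells in a library also enter. For the tests, every Trav or Trbv value was rescaled so that the chain total was equal in all libraries, and differences are on the log2(rescaled TPM + 1) scale. By the limma F test, 26 of the 136 Trav and Trbv members (19.1%) differed in use among organs, against 67.8% of the genes tested. They were 16 Trav and 10 Trbv. At an unadjusted p under 0.05 there were 36, a count for which the share of all genes is not given. Of the 26, 16 were listed at 0 in at least 1 library. Each organ was then set against the mean of the other 5, so these contrasts share libraries. The members called were 2 for spleen, 4 for lymph node, 6 for bone marrow, 24 for liver, 22 for lung and 10 for blood, against backgrounds of 28.6%, 31.4%, 26.1%, 36.5%, 45.6% and 38.3% of genes. The order of the organs did not hold with library weights, which gave 4, 16, 25, 5, 9 and 28 members, against backgrounds of 31.4%, 52.5%, 42.7%, 15.3%, 33% and 52.2%. Leaving out 1 library gave 0 (without bone marrow replicate 2) to 12 (without liver replicate 2) members for bone marrow and 3 (without blood replicate 1) to 15 for blood. The share of all genes is not given for these fits, so the counts show only how the calls moved. In liver 16 of the 24, and in lung 18 of the 22, were used less (backgrounds 23.6% and 29.1%), and 13 and 14 of these had a library at 0 in that organ. Liver and lung were the shallowest libraries, and the part of depth in these calls was not tested.

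In the β chain, Trbv13-2 had the highest mean share in each of the 6 organs. It averaged 296 TPM over all libraries, followed by Trbv26 (184 TPM) and Trbv3 (160 TPM), and the 5 leading segments of a library held between 45.8% (lymph node mean) and 53.6% (liver mean) of the Trbv sum. The 3 Trbv13 segments together, the mouse Vβ8 family, held 25.3% of the sum in blood, 28.05% in spleen, 29.2% in bone marrow, 29.5% in lymph node, 31.6% in lung and 32.1% in liver. None of the Trbv members with a coding sequence had a copy of 95% identity or more. Whether reads were shared between less similar Trbv segments was not tested. Bases 41 to 340 of the coding sequence of Trbv13-2 (GRCm38 chr6:41121396-41121832, plus strand, exons joined, from the GENCODE M21 transcripts) are shown, as those of the leading segment.
Trbv13-2: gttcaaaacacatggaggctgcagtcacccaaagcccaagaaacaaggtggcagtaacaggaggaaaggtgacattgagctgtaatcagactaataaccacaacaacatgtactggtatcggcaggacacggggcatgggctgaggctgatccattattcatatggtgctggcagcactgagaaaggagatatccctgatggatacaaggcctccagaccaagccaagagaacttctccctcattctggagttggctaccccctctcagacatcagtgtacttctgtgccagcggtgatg

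Trbv13-2 took 12.7, 17.5 and 14.8% of the Trbv sum in spleen, 15.8, 15.8 and 14.2% in lymph node, 14.2, 15.9 and 14.7% in bone marrow, 16.8, 18.7 and 15.2% in liver, 15.2, 18.2 and 25.3% in lung, and 10.96, 12.8 and 13.1% in blood. Lung replicate 3 was the highest library and blood replicate 1 the lowest, and the organs overlapped. By limma, its use was higher in lung by 0.37 (SE 0.12, adjusted p = 0.016) and lower in blood by 0.39 (SE 0.12, adjusted p = 0.014). Without lung replicate 3 the lung difference was 0.17 (adjusted p = 0.20 by limma), and without blood replicate 1 the blood difference was -0.31 (adjusted p = 0.11 by limma). Scaled to the constant genes in place of the V sum, the blood difference was -0.09 (adjusted p = 0.70 by limma), and with library weights the adjusted p in lung was 0.095.

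Trbv12-1 separated the organs more clearly. It held 3.55, 3.02 and 3.61% in lymph node, 4.25, 2.85 and 2.96% in blood, 2.84, 3.40 and 1.44% in spleen, 1.93, 1.28 and 1.25% in bone marrow, 1.96, 1.58 and 1.99% in liver, and 1.53, 1.27 and 1.68% in lung. All lymph node and blood libraries lay above all libraries of bone marrow, liver and lung, and spleen spanned the gap. Markers of CD8 T cells, which also carry αβ receptors, were higher in the same organs: Cd8a and Cd8b1 summed to 45.9 to 48.9 TPM in lymph node, 31.0 to 40.8 in spleen and 31.4 to 34.0 in blood, against 9.13 to 13.2 in bone marrow, liver and lung, and their part in the result was not tested. Its use was higher by limma in lymph node (0.75, SE 0.20, adjusted p = 0.0096) and blood (0.70, SE 0.20, adjusted p = 0.011) and lower in bone marrow by 0.68 (adjusted p = 0.019) and in lung by 0.65 (adjusted p = 0.015). Leaving out lymph node replicate 1 or 3 gave an adjusted p of 0.053 or 0.057 by limma, and leaving out bone marrow replicate 2 or 3 gave 0.12 or 0.13. The call was also lost in blood without blood replicate 1 (0.52, adjusted p = 0.11 by limma), and in lung without lung replicate 2 (adjusted p = 0.090), with library weights (0.16) or when scaled to the constant genes (0.054). The neighbouring segment Trbv12-2 went the other way in lung, at 3.29, 5.37 and 5.48% there against 4.17% or less in every other library (0.69, SE 0.27, adjusted p = 0.048 by limma), with lung replicate 1 inside the range of the rest. That call for Trbv12-2 was lost when any 1 of 12 libraries was left out, with an adjusted p of 0.19 by limma without lung replicate 3 and 0.18 without lung replicate 2. Summed as a subgroup, the Trbv12 segments were used less in bone marrow (-0.56, adjusted p = 0.027 by limma). The subgroup did not pass in lymph node (0.29, adjusted p = 0.24 by limma), blood (0.355, adjusted p = 0.13) or lung (0.20, adjusted p = 0.38).

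Bone marrow Treg cells used Trbv16 and Trbv1 more. Trbv16 held 7.63, 7.96 and 7.05% in bone marrow, 6.12 to 7.50% in spleen, 6.15 to 7.07% in lymph node, and 3.51 to 5.80% in liver, lung and blood (0.47, SE 0.12, adjusted p = 0.0081 by limma). Bone marrow, spleen and lymph node overlapped, and all 9 of their libraries lay above those of the other 3 organs. Trbv1 held 8.23, 8.23 and 7.11% in bone marrow, 6.36 to 8.15% in spleen and lymph node, and 4.17 to 6.88% in liver, lung and blood (0.40, SE 0.13, adjusted p = 0.029 by limma). Without bone marrow replicate 2 the adjusted p was 0.057 for Trbv16 and 0.13 for Trbv1 by limma, and without replicate 1 it was 0.13 for Trbv1. Scaled to the constant genes, the adjusted p by limma was 0.090 for Trbv16 and 0.056 for Trbv1. Trbv26 was used less in lymph node, at 7.08, 8.02 and 7.25%, than in liver (14.0, 9.09 and 12.7%), lung (9.84, 9.03 and 14.4%) and blood (13.5, 10.9 and 11.5%), with spleen and bone marrow between (lymph node against the rest -0.47, SE 0.13, adjusted p = 0.011 by limma). Without lymph node replicate 1 or 3, that adjusted p was 0.064 or 0.056.

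Liver Treg cells showed higher shares of Trbv29 and Trbv4. Trbv29 held 5.24, 9.88 and 7.07% in liver, 2.44 to 3.86% in spleen and 2.91 to 5.41% elsewhere, so 1 lung library overlapped the lowest liver library (0.83, SE 0.18, adjusted p = 0.0024 by limma). Trbv4 held 4.18, 4.87 and 3.89% in liver against 1.27 to 3.88% in all other libraries (0.69, SE 0.18, adjusted p = 0.0079 by limma), which leaves no overlap. With library weights the adjusted p of Trbv4 was 0.11 by limma. Trbv29 was also lower in spleen (-0.55, adjusted p = 0.034 by limma), but without spleen replicate 3 the difference was -0.36 (adjusted p = 0.24 by limma), and without spleen replicate 2 the adjusted p was 0.068. In lung, Trbv2 fell to 2.78, 1.07 and 1.06% against 2.35 to 4.45% elsewhere, with replicate 1 inside that range (-0.98, SE 0.23, adjusted p = 0.0023 by limma). The largest Trbv range belonged to Trbv23, which was listed at 0 in 2 liver libraries and at 0.156% in the third, and held 0.289 to 1.93% in the other organs (liver -3.29, SE 0.47, adjusted p = 6.3e-05 by limma).

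**Figure D2:**
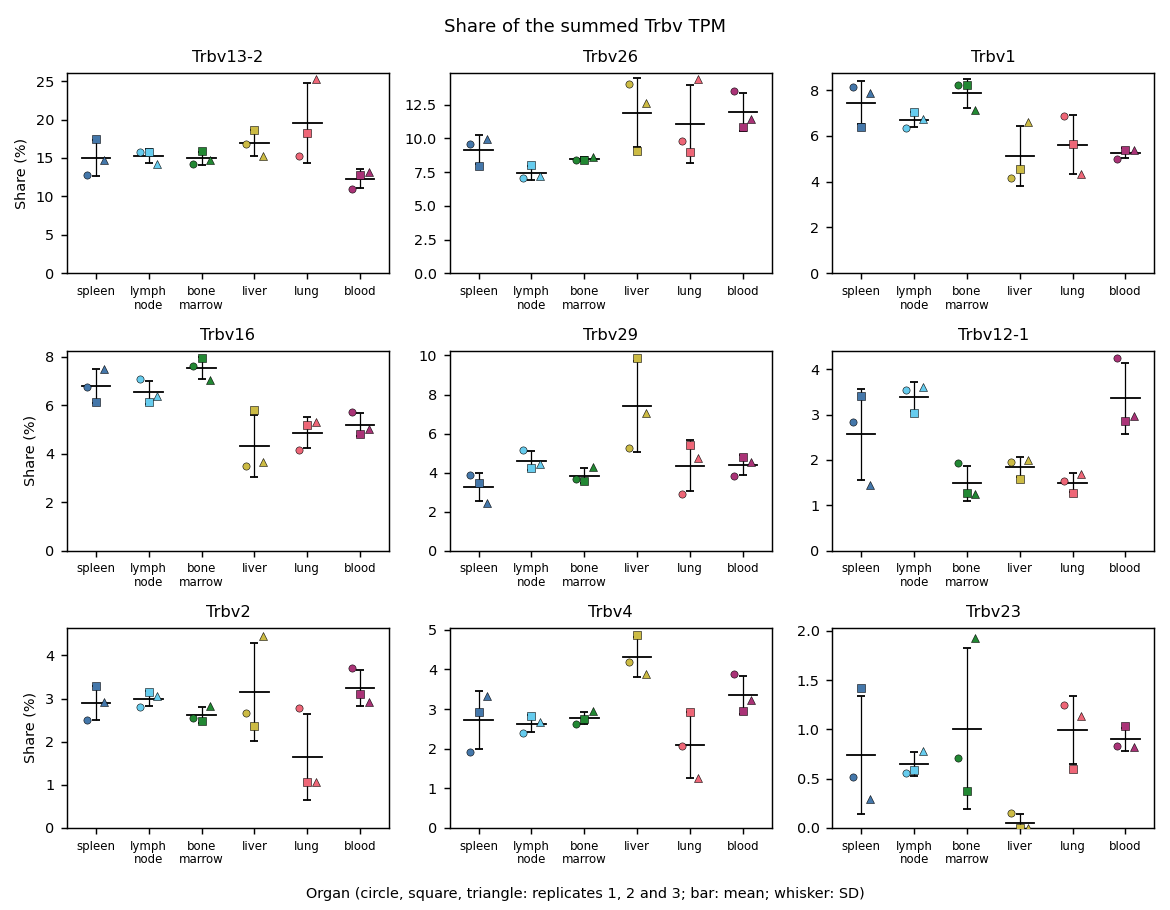
Share of the summed Trbv TPM (%, linear axes from 0, each panel with its own scale) held by 9 Trbv segments in each library, with organ mean and SD. Trbv12-1 is high in lymph node and blood, Trbv16 and Trbv1 in bone marrow and spleen, and Trbv4 in the 3 liver libraries (3.89 to 4.87%).

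The α chain was spread over more segments. The most abundant, Trav4-4-dv10, averaged 58.8 TPM over all libraries, followed by Trav7-2 (49.97 TPM) and Trav10 (37.9 TPM). The mouse α locus holds near copies of whole blocks of Trav segments, marked by the letters d and n in their names, and reads from such copies can be shared between them. Of the 105 Trav members with a coding sequence, 26 formed 13 pairs with identical sequence, 12 of which had the same TPM in all 18 libraries, and 83 had a copy of at least 95% identity. The values of these segments are therefore uncertain one by one. Trav4d-4 (chr14:52990866-52991389, plus strand) and Trav4n-4 (chr14:53302036-53302559, plus strand) share 1 sequence, printed once below Trav4-4-dv10 (chr14:53683647-53684177, plus strand), as coding bases 32 to 331 with the 8 bases that differ between them in capitals.
Trav4-4-dv10: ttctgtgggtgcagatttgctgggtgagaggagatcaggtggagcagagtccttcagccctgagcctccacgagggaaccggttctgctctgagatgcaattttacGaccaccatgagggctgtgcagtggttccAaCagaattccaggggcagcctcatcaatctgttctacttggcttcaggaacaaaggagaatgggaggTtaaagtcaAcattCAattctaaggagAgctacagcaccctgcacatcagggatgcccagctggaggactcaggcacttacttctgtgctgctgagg
Trav4d-4 and Trav4n-4: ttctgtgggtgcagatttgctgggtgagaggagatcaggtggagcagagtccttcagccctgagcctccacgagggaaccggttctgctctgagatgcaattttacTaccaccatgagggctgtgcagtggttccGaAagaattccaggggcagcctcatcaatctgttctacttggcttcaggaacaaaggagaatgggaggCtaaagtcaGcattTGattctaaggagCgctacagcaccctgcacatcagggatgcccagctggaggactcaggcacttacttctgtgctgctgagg

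Taken as a set, Trav4-4-dv10, Trav4d-4 and Trav4n-4 held 6.68, 7.70 and 6.52% of the Trav sum in blood, 7.63, 7.39 and 8.03% in lung, 8.90, 8.59 and 7.67% in lymph node, 10.75, 12.2 and 10.5% in spleen, 11.5, 10.3 and 12.4% in bone marrow and 17.9, 11.3 and 9.21% in liver. All spleen and bone marrow libraries lay above all libraries of blood, lung and lymph node. In the test by segment, Trav4d-4 was used less in blood (-0.65, SE 0.22, adjusted p = 0.030 by limma) and Trav4-4-dv10 more in liver (0.60, SE 0.18, adjusted p = 0.015 by limma). Neither call held throughout: the blood difference of Trav4d-4 was -0.38 (adjusted p = 0.28 by limma) without blood replicate 1 and -0.68 (adjusted p = 0.081) without blood replicate 3, and the liver difference of Trav4-4-dv10 was 0.34 (adjusted p = 0.14) without liver replicate 1. Scaled to the constant genes the adjusted p of Trav4d-4 was 0.12 by limma, and with library weights that of Trav4-4-dv10 was 0.17. Among the other leading segments Trav7-2, Trav10, Trav7-4, Trav3-3, Trav6-7-dv9 and Trav6d-6, the adjusted p of the limma F test lay between 0.082 and 0.78.

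Liver stood apart in Trav7d-3. This segment held 2.06, 2.63 and 2.70% of the Trav sum in liver, against 0.276 to 0.575% in spleen, 0.458 to 0.703% in lymph node, 0.289 to 0.649% in bone marrow, 0.495 to 0.684% in blood, and 0.447, 0 and 0.114% in lung. In TPM, the 3 liver libraries had 32.6, 40.9 and 39.2 and all others at most 11.3. The liver difference was 2.46 (SE 0.37, adjusted p = 1.0e-04 by limma), and it lay between 2.33 and 2.87 under the 27 alternatives computed. Trav7d-3 (chr14:52744249-52744840, plus strand) and its copy Trav7-3 (chr14:53443249-53443839, plus strand) differ at 2 of 337 coding bases, shown in capitals within bases 38 to 337 because the result turns on them; counted from the start codon, the changes from Trav7-3 to Trav7d-3 are C279G and G282A.
Trav7-3: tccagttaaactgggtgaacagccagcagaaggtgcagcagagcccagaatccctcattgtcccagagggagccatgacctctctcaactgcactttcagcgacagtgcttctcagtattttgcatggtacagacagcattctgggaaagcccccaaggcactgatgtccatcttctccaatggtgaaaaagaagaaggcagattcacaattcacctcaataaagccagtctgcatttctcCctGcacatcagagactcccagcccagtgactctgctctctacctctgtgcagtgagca
Trav7d-3: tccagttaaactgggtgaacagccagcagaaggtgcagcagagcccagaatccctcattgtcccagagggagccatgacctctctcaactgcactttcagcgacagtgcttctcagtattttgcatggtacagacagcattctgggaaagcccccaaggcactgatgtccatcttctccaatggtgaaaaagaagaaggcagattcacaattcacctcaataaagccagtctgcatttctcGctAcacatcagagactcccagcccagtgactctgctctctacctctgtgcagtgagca

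Trav7-3 differed in the opposite direction. It held 0.316, 0.527 and 0% in liver, 1.52 to 2.02% in spleen, 0.920 to 1.80% in lymph node, 0.718 to 2.27% in bone marrow, 0.747 to 1.23% in blood, and 1.79, 1.91 and 0% in lung (liver -2.17, SE 0.74, adjusted p = 0.032 by limma). Without liver replicate 3 the difference was -1.31 (adjusted p = 0.23 by limma), and the adjusted p was 0.16 with library weights, 0.072 with a pseudocount of 0.1 and 0.058 without a filter. The sum of the pair was 2.37, 3.16 and 2.70% in liver, which overlapped spleen (1.79 to 2.53%) and bone marrow (1.13 to 2.92%). The liver libraries thus differed in which copy the reads were assigned to, while the summed share of the pair overlapped that of other organs. Trav3-4 was also higher in liver, at 0.728, 1.27 and 1.19%, with at most 0.507% in every other library and 0 in all 3 lung libraries (2.45, SE 0.42, adjusted p = 3.0e-04 by limma). With library weights, its adjusted p was 0.13 by limma. Together with its near copy Trav3-1 it held 0.728, 2.59 and 1.19% in liver, which overlapped spleen (up to 1.12%) and lung (up to 1.26%). Other segments had zeros in liver. Trav10d and Trav7-1 were listed at 0 in all 3 liver libraries, and Trav14n-3 and Trav21-dv12 in 2 of 3, where the other organs averaged 0.999 to 2.05% for Trav14n-3 and 0.876 to 1.48% for Trav21-dv12.

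In lung, Trav6-5 showed the largest of the 4 gains called. Its share was 3.86, 5.08 and 7.48% in lung, 2.94, 3.69 and 3.05% in blood, 1.78, 2.46 and 4.67% in liver, 2.27, 1.55 and 2.46% in bone marrow, 2.10, 1.97 and 2.22% in lymph node, and 0.702, 2.72 and 1.71% in spleen. The lung libraries lay above all others except liver replicate 3. Summed with its near copies Trav6d-5 and Trav6n-5, it held 7.29, 10.7 and 7.48% in lung and at most 5.55% in every other library. The difference was 1.203 (SE 0.31, adjusted p = 0.0046 by limma). The same segment was called lower in spleen (-0.91, SE 0.31, adjusted p = 0.036 by limma), but without spleen replicate 1 the difference was -0.41 (adjusted p = 0.35 by limma), and without spleen replicate 3, lymph node replicate 3, bone marrow replicate 1 or 3, or blood replicate 2 the adjusted p was 0.0505 to 0.073. Summed over all its segments, the Trav6 subgroup held 21.6% in lung and 15.1 to 16.3% in the other organs (0.46, adjusted p = 0.0047 by limma). Trav8n-2 was listed at 0 in lung replicates 1 and 2 and held 0.662% in replicate 3, against 0.370 to 2.75% in the other organs (-2.62, SE 0.52, adjusted p = 6.4e-04 by limma).

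Trav1 and Trav11 are the V segments of the invariant α chains of MAIT and NKT cells, which pair them with fixed joining segments. Trav11 did not reach a mean of 1 TPM in any organ, while its near copy Trav11d did. All 80 joining segments were listed at 0 in all libraries, so these invariant chains could not be separated from other chains with the same V segment. Trav1 was listed at 0 in lung replicates 1 and 2 and held 0.274% in replicate 3, against 0.348 to 1.73% in the other organs (-2.63, SE 0.43, adjusted p = 1.3e-04 by limma). Trav11d, which differs from its copy Trav11 by 1 of 343 bases, spread from 0 to 2.54% with zeros in spleen, liver and lung, and had an adjusted p of 0.91 in the limma F test. Its blood share of 0.747, 0.247 and 0.145% lay inside the range of the other organs. The natural killer and NKT list, given above, was highest in blood.

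Blood used Trav10d and Trav6-4 more. Trav10d held 2.18, 0.692 and 0.894% in blood, 0.631, 0.492 and 0.743% in lymph node and 0.264 to 0.438% in bone marrow, and was listed at 0 in 1 spleen, 2 lung and 3 liver libraries (blood 2.41, SE 0.43, adjusted p = 3.1e-04; lymph node 1.47, SE 0.43, adjusted p = 0.017, both by limma). Blood and lymph node overlapped, and without lymph node replicate 1 or 3 the lymph node adjusted p was 0.067 or 0.088 by limma. Trav10, Trav10d and Trav10n, which differ by few bases, together held 6.21, 3.49 and 4.199% in blood and 2.96 to 6.91% in the other organs, so the set did not set blood apart. Trav6-4 held 0.962, 1.71 and 0.776% in blood and at most 0.942% elsewhere, with overlap between blood and lymph node (1.58, SE 0.52, adjusted p = 0.024 by limma), and by limma the adjusted p was 0.15 without blood replicate 2, 0.064 without blood replicate 1 and 0.096 with a pseudocount of 0.1. With its near copy Trav6d-4 it held 1.83, 2.28 and 1.55% in blood, where the lowest library lay beside the highest lymph node library (1.547%).

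**Figure D3:**
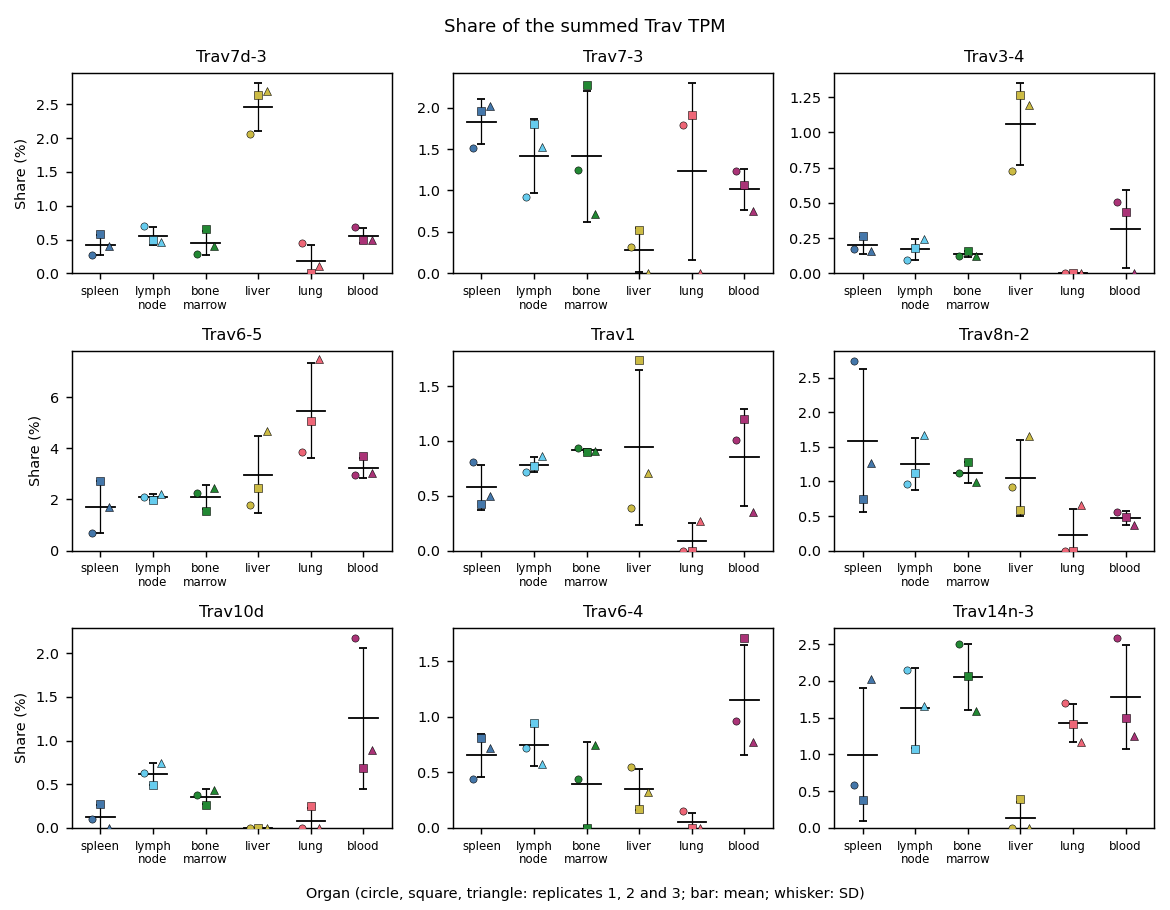
Share of the summed Trav TPM (%, linear axes from 0, each panel with its own scale) held by 9 Trav segments in each library, with organ mean and SD. Trav7d-3 and Trav3-4 are high in the 3 liver libraries while Trav7-3 is low there (0 to 0.527%), Trav6-5 is high in lung, and Trav1 and Trav8n-2 are listed at 0 in 2 lung libraries.

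The number of segments in use was compared as an effective number, the count of equally used segments with the same Shannon entropy. For Trav it was 72.4, 75.2 and 74.1 in lymph node, 70.3, 71.1 and 72.2 in blood, 68.1, 68.5 and 66.2 in bone marrow, 63.2, 64.0 and 63.0 in spleen, 45.3, 51.7 and 51.6 in liver and 45.6, 53.7 and 45.8 in lung. For Trbv it lay between 12.8 in lung replicate 3 and 17.2, and the organ means ran from 14.7 in liver to 17.1 in blood. The Trav values of lymph node, blood, bone marrow and spleen followed in this order without overlap, and liver and lung lay below them and overlapped. Over all genes, from the deepest to the shallowest, the libraries ran blood, lymph node, bone marrow, spleen, lung and liver. The Trav sum was lowest in blood, at 547 TPM on average, so this need not be the order of reads on Trav segments. The part of depth in these numbers was not tested.

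Replicates differed from each other by about as much as organs did in part of the data. The difference between 2 libraries was taken as the share of a chain's V sum not held in common. For Trbv it averaged 5.75% among lymph node replicates, 7.22% in bone marrow, 9.02% in blood and 12.1% in spleen, and was larger in lung (18.6%) and liver (18.7%). Between organs it was 8.74% for lymph node and bone marrow, 9.99% for lymph node and spleen, 15.1% for bone marrow and blood, and 18.9% for liver and lung. Blood against bone marrow thus exceeded the replicate values of both, with a lowest pair of 12.3% against a highest replicate pair of 10.2% in blood and 8.55% in bone marrow. Other blood pairs overlapped their replicates. The lowest pair of blood and lymph node was 8.22%, below the highest blood replicate pair. That of blood and spleen was 10.4%, below the highest spleen replicate pair of 13.9%. Liver against lung did not exceed its replicates. For Trav, replicates differed by 12.6% in lymph node, 18.2% in bone marrow and 44.2% in liver, and liver and lung by 44.0%. Spleen replicates differed by 28.1%, more than spleen did from lymph node (23.7%) or bone marrow (24.5%).

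**Figure D4:**
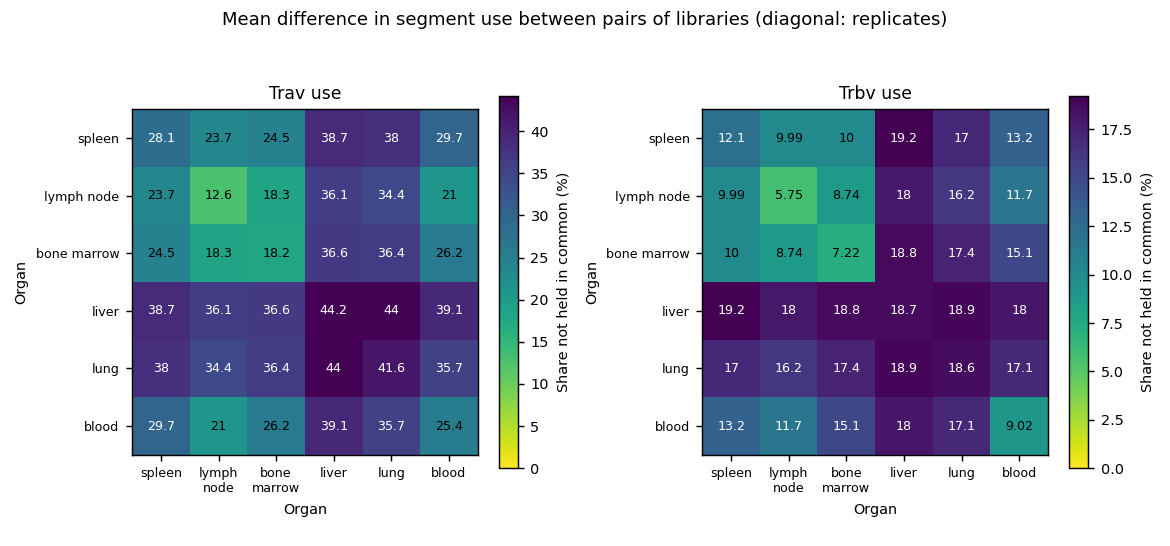
Mean share (%) of the chain's summed V TPM not held in common by pairs of libraries, for Trav and Trbv, for every pair of organs, with replicate pairs on the diagonal and darker cells more different. Lymph node replicates are closest (12.6% and 5.75%), and the liver and lung rows are dark on and off the diagonal.

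Position along the α locus was described because primary and later rearrangements are known to use V segments at different distances from the joining segments. The TPM-weighted mean distance of Trav segments from Trac was 842 to 863 kb in bone marrow, 858 to 887 kb in spleen, 866 to 888 kb in lymph node, 880 to 899 kb in liver, 872 to 903 kb in blood and 859 to 920 kb in lung. The organs overlapped, except that bone marrow lay below lymph node, liver and blood, with its highest library at 863 kb and the lowest lymph node library at 866 kb. These distances depend on the copy to which reads were assigned, which is uncertain for near copies. Recombination genes were highest on average in bone marrow: Rag1, part of the recombinase, was at 10, 11.3 and 10.4 TPM there and at most 0.85 TPM elsewhere, and Dntt, which adds bases at the joins, at 15.6 to 16.97 TPM against at most 2.04 TPM. Rag2, the partner of Rag1, was at 2.63, 2.16 and 2.59 TPM in bone marrow but at 3.38 TPM in liver replicate 1, and at most 1.04 TPM elsewhere. Of these 3 genes, Rag1 and Dntt passed the limma F test and Rag2 did not (adjusted p = 0.076). Ptcra, which encodes the α chain substitute of immature T cells, was listed at 0 in all libraries but 1 from blood (0.15 TPM).

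Genes of the γδ receptor were low in all organs and highest, for some of them, in blood. Trdv4, known as Vδ1, was measured at 5.10, 5.92 and 6.31 TPM in blood, 1.61, 0 and 1.87 in lymph node, 0.54, 1.06 and 0.55 in bone marrow, 0.77, 0 and 0 in spleen, and was listed at 0 in all liver and lung libraries. The 3 blood libraries lay above all others. On the log2(TPM + 1) scale, blood was higher by 2.48 against spleen, 1.79 against lymph node and 1.99 against bone marrow, with an SE of 0.34 and adjusted p of at most 5.3e-04 by limma. Trgv4 was at 7.93, 2.42 and 4.13 TPM in blood and at 1.2 TPM in 1 bone marrow library, and was listed at 0 in the other 14 libraries. Trgv4 met the threshold of 1 TPM through blood alone, so a test of it against blood would reuse the values that selected it, and none is given. Trgv6, which is known to pair with Trdv4 in an invariant γδ receptor, was at 3.69, 2.68 and 4.91 TPM in blood, 6.31 TPM in lung replicate 3 and 1.36 TPM in lymph node replicate 3, and at 0 elsewhere. The other segments did not separate the organs: the limma F test gave an adjusted p of 0.12 for Trdv1, 0.55 for Trdv2-2, 0.10 for Trdv5, 0.52 for Trdv2-1, 0.68 for Trgv1 and 0.56 for Trgv2.

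Among the γ and δ constant genes, Trgc1 was at 16.95, 13.6 and 17.2 TPM in blood, 13.4, 13.0 and 14.7 in lymph node, 7.39, 8.22 and 4.32 in spleen, 5.52, 2.95 and 9.34 in lung, 4.41, 1.80 and 7.34 in liver, and 2.17, 0.98 and 0.85 in bone marrow. Blood and lymph node overlapped and lay above the other organs. By limma, blood was higher than bone marrow by 2.89 (adjusted p = 2.7e-05), than liver by 1.74 (adjusted p = 0.0019), than lung by 1.39 (adjusted p = 0.0084) and than spleen by 1.18 (adjusted p = 0.027), and the difference from lymph node was 0.20 (SE 0.39, adjusted p = 0.75). Without spleen replicate 3 the spleen difference was 0.93 (adjusted p = 0.12 by limma), and without blood replicate 1 or 3 its adjusted p was 0.076 or 0.078. Trgc2 was at 5.27, 7.10 and 6.90 TPM in blood and at most 6.39 TPM elsewhere, and Trgc4 at 5.54 to 6.23 TPM in blood, 5.27 to 6.23 in lymph node, 3.94 to 7.77 in spleen and 0 to 3.18 in bone marrow, liver and lung. Trdc did not pass the F test (adjusted p = 0.15 by limma), with organ means of 2.04 TPM in bone marrow to 4.32 in lymph node and 4.07 in blood. The Trgc genes are similar in sequence and their separate values are uncertain.

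Relative to the αβ constant genes, the γδ constant genes stood out more in blood. Trdc plus the 3 Trgc genes came to 1.55, 1.38 and 1.54% of Trac plus Trbc1 and Trbc2 in blood, 0.516 to 0.589% in lymph node, 0.240 to 0.389% in spleen, 0.287 to 0.567% in lung, 0.199 to 0.398% in liver and 0.166 to 0.198% in bone marrow. The blood libraries did not overlap any other. A γδ T cell list of 5 genes outside the receptor summed to 37.4 ± 0.710 TPM (SD, n = 3) in blood, 25.8 in bone marrow, 20.3 in spleen and 7.22 to 11.5 in the other organs, but most of that sum was Blk, which B cells also express. Cd163l1, the scavenger receptor found on γδ T cells, was at 4 to 4.21 TPM in blood, at 0.71 to 1.81 TPM in lung and at 0.61 TPM or less in every library of the other organs. The other 3 genes of the list were not highest in blood: Sox13 averaged 0.923 TPM in blood and 1.80 in bone marrow, Il23r 0.58 in blood and 0.863 in lymph node, and 5830411N06Rik 2.32 in blood and 2.81 in lymph node. All 5 genes of the natural killer and NKT list were above 0 in all blood libraries, with Ncr1 at 49.4 TPM on average. The part of γδ T, natural killer or B cells in the blood values was not tested.

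**Figure D5:**
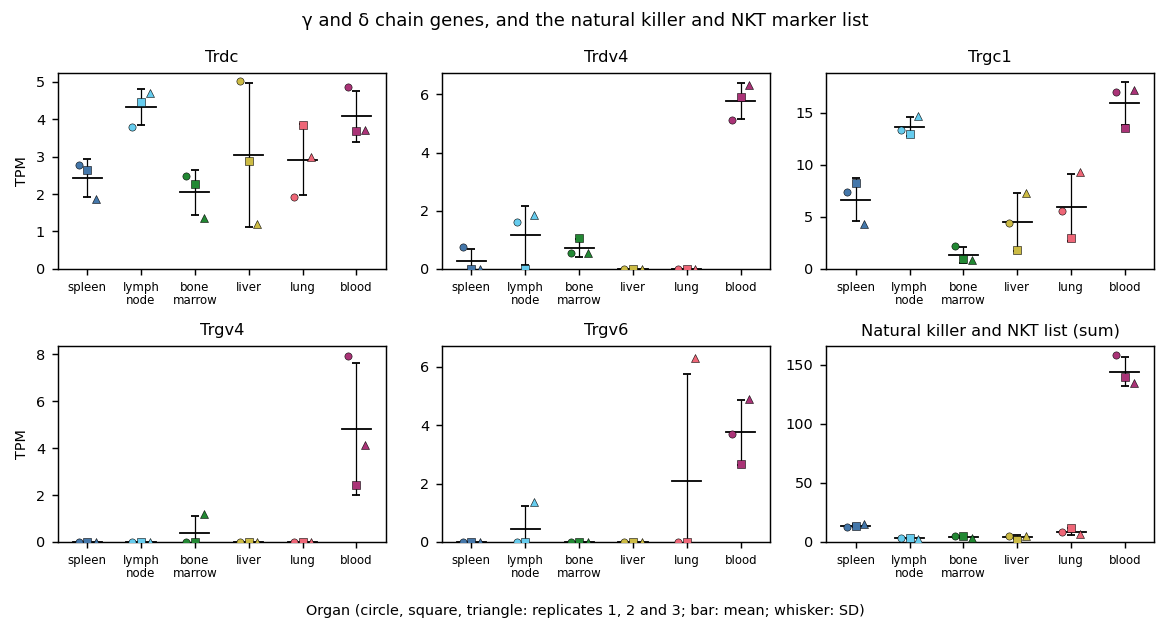
Level (TPM, linear axes from 0, each panel with its own scale) of 5 γ and δ chain genes and of the summed natural killer and NKT marker list in each library, with organ mean and SD. The 3 blood libraries are highest for Trdv4 (5.10 to 6.31 TPM) and for the marker list. Trgv4, which met the threshold through blood alone, is listed at 0 in all spleen, lymph node, liver and lung libraries.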

How the data were processed

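The authors deposited 1 table of TPM values per library, for 55487 gene identifiers. STAR, RSEM and the build mm10 are named in the submitters' processing notes, without versions or roles; the counting of reads that fit several copies is not given in the sources used here. Symbols came from GENCODE M21 names (55141 identifiers matched), with 10 γ chain symbols updated from RefSeq synonyms, and coding sequences from the GENCODE M21 transcripts. Libraries summed to 999999.27 to 1000000.62 TPM, and no 2 tables were identical.

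The 16694 genes averaging 1 TPM or more in some organ were fitted with limma 3.58.1 (R 4.3.3) on log2(TPM + 1) over all 18 libraries, with 1 mean per organ, trend and robust eBayes, and Benjamini-Hochberg adjustment over the whole table, at 0.05. For segment use, Trav and Trbv values were rescaled to an equal chain sum per library. Sums, ratios, effective numbers and differences between libraries have no test. The fit was tested on simulated data, and depth was compared through the TPM step of 1 read.

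Named were the constant genes, all Trdv and Trgv members, the 10 Trav and 10 Trbv of highest mean, the 6 of each with the widest range of use and the 2 largest changes per organ and direction (mean at least 2 TPM, F test passed), Trav1, Trav11d and the members beside the threshold. Trbv12-2, Trav7-3 and Trav10n were chosen after their values were seen. Members and lists were chosen with earlier results of these data known. Alternatives covered the pseudocount (0.1), filters, library weights, scaling to constant or T cell genes, subgroups, a replicate block, library omissions and, added after seeing the data, summed identical copies and organs left out.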

Additional observations from a re-analysis of the deposited data

How the results depend on the processing

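Depth limits the zeros: the lowest non-zero V segment value of a library was 1.79 TPM or less in liver replicates 1 and 2 and 3.11 TPM in liver replicate 3, so a listed 0 there does not show absence. Replicate numbers did not pair the libraries (correlations of deviations from -0.0345 to 0.0302 over 45 same-numbered pairs, and -0.0349 to 0.0397 over 90 others). With a replicate block the F test called 61 members by level and 32 by use, and no count moved by over 1.5 times. Where a count moved below, the cause was not tested unless the setting itself removes genes or samples. A count in this section with no share of all genes, here or above, shows only how the calls moved with the setting. It is not read as a result about the members.

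Library weights gave 95 members by level (75.5% of all genes), 6 higher and 95 lower in blood against lymph node (23.4% and 37.5% of all genes), 13 and 59 against bone marrow (20.7% and 32.8%), and in use 4 for spleen, 16 for lymph node, 25 for bone marrow, 5 for liver, 9 for lung and 28 for blood (31.4%, 52.5%, 42.7%, 15.3%, 33% and 52.2% of all genes). Scaling to the T cell list gave, higher and lower in blood, 21 and 3 (spleen), 14 and 2 (lymph node), 17 and 8 (bone marrow), 28 and 10 (liver), and 16 and 11 (lung). Trbc1 and Trbc2 changed sign against lymph node (0.36 and 0.19), bone marrow (0.30 and 0.12) and liver (0.11, adjusted p = 0.19 by limma, and 0.36). A filter of 5 TPM left 1 member higher than in lymph node, 3 in use for bone marrow and 4 for spleen; a mean of 1 TPM over all libraries left 3 for bone marrow; no filter left 0 for spleen (limma; 7 at an unadjusted p under 0.05 in the main fit) and 6 for blood. Scaling to constant genes gave 9 for spleen. Over 43 subgroups, 17 passed the F test (68.2% of all features), with 2 for lymph node, 3 for bone marrow, 11 for liver, 10 for lung and 6 for blood (31.6%, 26.3%, 36.7%, 45.9% and 38.6%). Without the blood libraries, 40 members passed the F test by level.

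Leaving out 1 library gave, in use, 3 (without blood replicate 1) to 15 calls for blood, 0 (without bone marrow replicate 2) to 12 (without liver replicate 2) for bone marrow, 2 (without lymph node replicate 3) to 8 (without liver replicate 2) for lymph node and 1 (without lymph node replicate 3) to 6 (without liver replicate 2) for spleen, and in level 11 (without bone marrow replicate 2) to 27 members lower than in bone marrow and 3 (without spleen replicate 3) to 7 higher than in spleen. The F test kept 50 to 74 members by level and 24 to 39 by use, liver 20 to 29 and lung 18 to 33.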

Other observations

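The copy letters of the Trav names give another view of the α locus. Segments with the letter d held 25.0% ± 0.738 (SD, n = 3) of the Trav sum in liver, at 24.2, 25.4 and 25.5%, and 20.1% ± 0.975 in bone marrow, at 19.8, 21.2 and 19.3%, with no overlap between these organs. Lung, at 23.1, 25.9 and 21.5%, overlapped liver. These sums depend on the copy to which reads were assigned, which is uncertain for near copies. Segments with the letter n held 18.3 to 20.8% over the organ means, and those without a letter 55.8 to 60.9%. Annotated pseudogene segments held 0.385 to 1.44% of the Trav sum in blood and were listed at 0 in all 3 lung libraries. They held 0.631 to 1.60% in spleen, 0.486 to 1.32% in lymph node and 0.489 to 0.732% in bone marrow. Liver, at 0.183, 0 and 2.20%, had both a 0 and the highest library. The part of depth in these values was not tested.

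The V to constant ratio of a chain also differed. The Trbv sum per unit of the Trbc sum was 0.831, 0.752 and 0.831 in blood, 0.770, 0.683 and 0.742 in lung, 0.667, 0.694 and 0.669 in lymph node, 0.651, 0.841 and 0.590 in liver, 0.669, 0.636 and 0.648 in bone marrow, and 0.508, 0.530 and 0.536 in spleen, which lay below all other libraries. Liver replicate 2 was the highest library, and liver overlapped every organ but spleen. The Trav sum per unit of Trac was 1.43, 1.40 and 1.39 in blood and 1.09 to 1.51 in the other organs. No test was made of these ratios.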
